A study of Mus musculus with 4 samples.

Results

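The acid-sensing ion channel genes Asic1, Asic2, Asic3 and Asic4 and the polycystin-like channel genes Pkd2, Pkd2l1 and Pkd1l3 were followed in organs of Corti that had lost Tbx2. These 7 genes were taken by their symbols from the array files, where they have 9 of 39429 probes, 6 for the acid-sensing channels and 3 for the polycystins. Asic4 and Pkd2l1 were chosen by their log2 ratio of Sox2-Tbx2LOF over control in this same comparison, in which both fell strongly, so their values, and whether they met the rule for a call, are given as a description, with no p and nothing read from them. The other 5 genes were added as their relatives, to show how far such a fall extends within both families. All 9 probes were well above background in both genotypes on each array, and all 9 were among the 28079 probes tested.

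The organ of Corti, which senses sound in the cochlea, holds inner hair cells (IHCs) and inner supporting cells in an inner compartment and outer hair cells (OHCs) and outer supporting cells in an outer compartment. RNA came from the basal part of the cochlear duct at E18.5 (E, embryonic day). Sox2-Tbx2LOF embryos were Sox2(creERT2);Tbx2(fl/fl), so that tamoxifen deleted Tbx2 in cells with an active Sox2 gene, whereas controls lacked the recombinase and carried Tbx2(fl/n.d.), a label that leaves the other allele open. The study's methods add an R26(mTmG) membrane reporter allele to the Sox2-Tbx2LOF genotype. In the cross described there, both parents are Tbx2(fl/fl) and the mother is R26(mTmG/mTmG). Littermates without the recombinase would then also be Tbx2(fl/fl) and carry the reporter. For the arrays, the methods describe the controls only as lacking the recombinase. All embryos were on an NMRI background, and dams received 4 mg of tamoxifen at E16.5 together with progesterone. Each of 4 arrays compared a pool of Sox2-Tbx2LOF tissue with a control pool of the same sex, female on arrays 1 and 2 and male on arrays 3 and 4, which gave 4 independent pools per genotype, each of tissue from several embryos. The dyes were swapped within each sex, with Sox2-Tbx2LOF RNA in Cy3 (green) on arrays 1 and 3 and in Cy5 (red) on arrays 2 and 4. CreERT2 is inserted into Sox2 and was present in Sox2-Tbx2LOF embryos alone, so carrying it cannot be told apart from the loss of Tbx2.

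Acid-sensing ion channels (ASICs) are proton-gated sodium channels of the degenerin and epithelial sodium channel superfamily, best known from central and sensory neurons. ASIC4 is the member that gives no proton-gated current when expressed alone. Polycystin-2, encoded by Pkd2, is a cation channel of the transient receptor potential (TRP) superfamily that sits in primary cilia and the endoplasmic reticulum, and its gene is mutated in polycystic kidney disease. PKD2L1 is a related channel that marks sour taste cells and neurons contacting the cerebrospinal fluid, and PKD1L3 is a large membrane protein that can assemble with it.

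The probes behind the lowest ratios are shown because 2 of them are not independent of each other. Both Asic4 probes are 60 bases long and start at bases 2582 and 2590 of the transcript, so they share 52 bases. Their last 30 bases follow, 5′ to 3′, with the part common to both probes in capitals.

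Asic4, A_55_P2162747: AAGTGCTGGTGAAATTGGGAATAAAGAGGC

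Asic4, A_55_P2185198: GTGAAATTGGGAATAAAGAGGCacaaagaa

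The common part holds AATAAA, the letters of the canonical polyadenylation signal, which occur in 12.6% of all 39429 probes as printed and in no probe of the other 6 genes. On mouse genome build mm9 these probes cover chr1:75470848-75470907 and chr1:75470856-75470915 on the plus strand. The last 30 bases of the Pkd2l1 and Asic2 probes are given for the same reason, as the only probe of each gene on the array.

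Pkd2l1, A_52_P193611: atgggaatgactctccggaagacctcagac

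Asic2, A_51_P334876: cttcgtcttacggtctttggtttttgatgt

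The Pkd2l1 probe lies at chr19:44222606-44222665 and the Asic2 probe at chr11:80693797-80693856, both on the minus strand. They start at bases 2782 and 2832 of their transcripts. The array files give no exon, and none was assigned.

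Pkd2l1 had the lowest level relative to control among the 7 genes. Its spot signal in the Sox2-Tbx2LOF channel was 232, 310, 302 and 238 on arrays 1 to 4, against 773, 763, 839 and 645 in the control channel of the same spots and a local background of 30 to 82. On the log2 scale after normalization, the 4 Sox2-Tbx2LOF pools lay between 7.996 and 8.33 and the 4 control pools between 9.53 and 9.76, with no overlap. The log2 ratio of Sox2-Tbx2LOF over control was −1.47, −1.59, −1.35 and −1.54 on arrays 1 to 4, a mean of −1.48 ± 0.10 (SD, n = 4), or 2.80-fold lower. This was the sixth lowest of the 28079 ratios. In whole tissue, fewer cells that express a gene and less RNA per cell cannot be told apart.

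Asic4 was lower at both of its probes. At A_55_P2162747 the Sox2-Tbx2LOF channel gave spot signals of 1534, 1517, 1627 and 1096, and the control channel 3011, 2575, 3093 and 2065. The log2 ratios were −0.89, −1.01, −0.93 and −0.95, a mean of −0.94 ± 0.049 (SD, n = 4), or 1.92-fold lower. At A_55_P2185198 they were −0.90, −1.16, −0.89 and −1.15, a mean of −1.03 ± 0.15 (SD, n = 4), or 2.04-fold lower. The spread at A_55_P2185198 followed the dye, with a mean of −0.90 with Sox2-Tbx2LOF RNA in Cy3 and −1.15 with it in Cy5. At A_55_P2162747 these means were −0.91 and −0.98. Levels of the 2 genotypes did not overlap at either probe. Both pools of array 4 were the lowest of their genotype at both probes, for example at A_55_P2162747 with 11.15 among control pools that otherwise lay between 11.48 and 11.52, while the ratio of that array did not stand apart.

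Asic2, which encodes a subunit that joins ASIC1 and ASIC3 in mixed channels, was lower on all 4 arrays, by a smaller and more variable amount. Its spot signal was 372, 321, 353 and 350 in the Sox2-Tbx2LOF channel and 505, 527, 528 and 469 in the control channel. The log2 ratios were −0.25, −1.05, −0.45 and −0.57, with a mean of −0.58 ± 0.34 (SD, n = 4), or 1.49-fold lower. The 95% interval of the mean was −0.76 to −0.40, and the adjusted p was 0.0113 (limma, Benjamini-Hochberg over all tested probes). Sox2-Tbx2LOF pools lay between 8.20 and 8.67 and control pools between 8.92 and 9.25 on the log2 scale, with no overlap. The mean ratio was −0.35 with Sox2-Tbx2LOF RNA in Cy3 and −0.81 with it in Cy5, and without a term for the dye the adjusted p was 0.145. Asic2 was not called because it fell short of the minimum fold of 1.5, and it was called without array 1 (−0.63) or without array 4 (−0.70). On chromosome 11 the Asic2 probe lies 4.96 Mb from the Tbx2 probe, on build mm9.

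**Figure D1:**
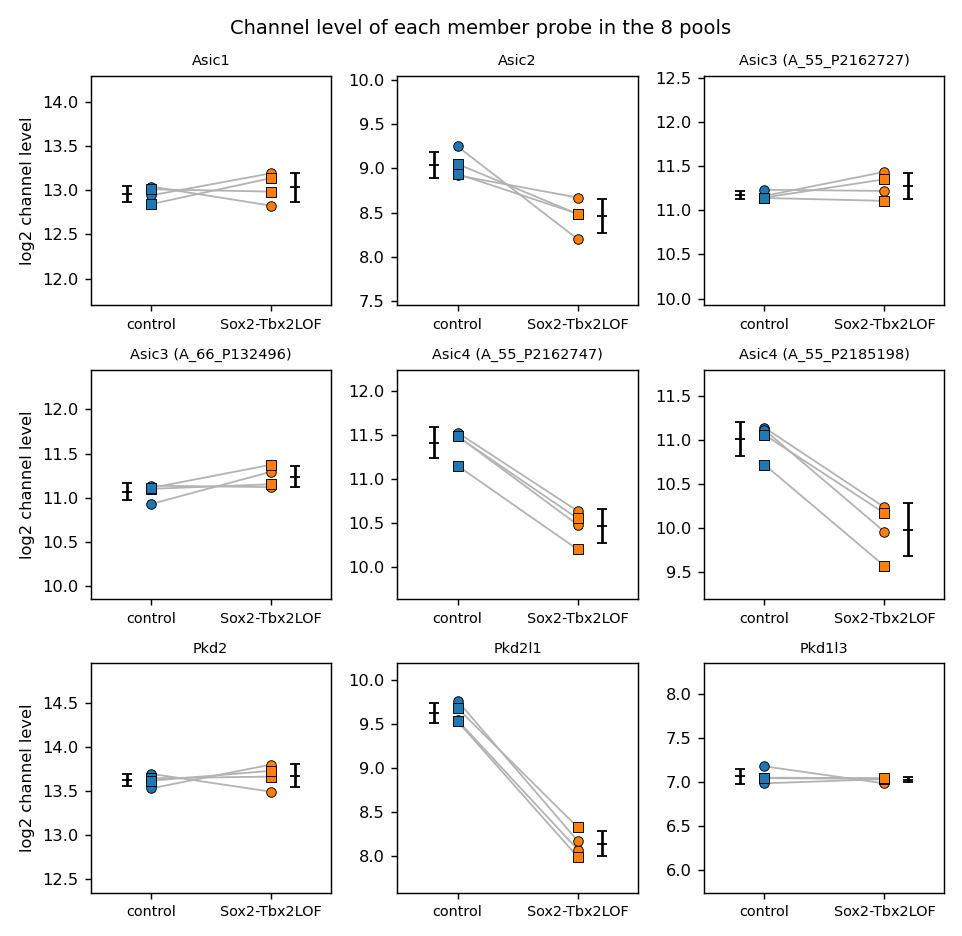
Log2 channel level (vertical axis, with the same span in every panel) of the 9 probes in the 4 control pools (blue) and 4 Sox2-Tbx2LOF pools (orange), with circles for female and squares for male pools. Grey lines join pools on the same array, and black bars give the mean ± SD (n = 4). Pools of the 2 genotypes do not overlap for Pkd2l1, Asic4 or Asic2, and they overlap for the other probes. Levels of different probes are not comparable.

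Asic1 encodes the main proton sensor among ASICs of central neurons. Its log2 ratios were 0.25, −0.22, 0.30 and −0.03 on arrays 1 to 4. They were above 0 on both arrays with Sox2-Tbx2LOF RNA in Cy3 (mean 0.27) and below 0 on both with it in Cy5 (mean −0.12). The mean over the 4 arrays was 0.076 ± 0.24 (SD, n = 4), with a 95% interval of −0.042 to 0.19 and an adjusted p of 1.00 (limma).

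Asic3, which encodes the ASIC typical of peripheral sensory neurons, has 2 probes, which the array files place on different transcript records. One of them, A_66_P132496, covers 577 bases of genome with its 60 bases and so crosses at least 1 exon junction. Its ratios were 0.37, −0.02, 0.05 and 0.26, a mean of 0.17 ± 0.18 (SD, n = 4), with a 95% interval of 0.01 to 0.32 and an adjusted p of 0.643 (limma). At A_55_P2162727 they were 0.27, −0.01, −0.03 and 0.21, a mean of 0.11 ± 0.16 (SD, n = 4), with a 95% interval of −0.04 to 0.26 and an adjusted p of 0.999 (limma). Both probes were higher on arrays 1 and 4 and near 0 on arrays 2 and 3, so they moved together across arrays. On build mm9, A_55_P2162727 (chr5:23922359-23922418) lies within the stretch that A_66_P132496 spans (chr5:23922240-23922816). A_66_P132496 covers only part of that stretch with its 60 bases. Lying within it therefore does not show that the 2 probes read the same bases, and whether they do was not tested.

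Pkd2 gave spot signals between 10536 and 15386 in the 8 pools. Its log2 ratios were −0.20, 0.27, 0.02 and 0.11, with a mean of 0.05 ± 0.20 (SD, n = 4), a 95% interval of −0.079 to 0.18 and an adjusted p of 1.00 (limma). Pkd1l3 was dim, with signals of 84 to 153 over a local background of 29 to 75. Its log2 ratios were −0.19, 0.05, −0.01 and −0.0046, a mean of −0.04 ± 0.11 (SD, n = 4), with a 95% interval of −0.16 to 0.078 and an adjusted p of 1.00 (limma). The normalization pulls ratios of such a dim probe towards 0, so the interval may be too narrow for Pkd1l3.

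**Figure D2:**
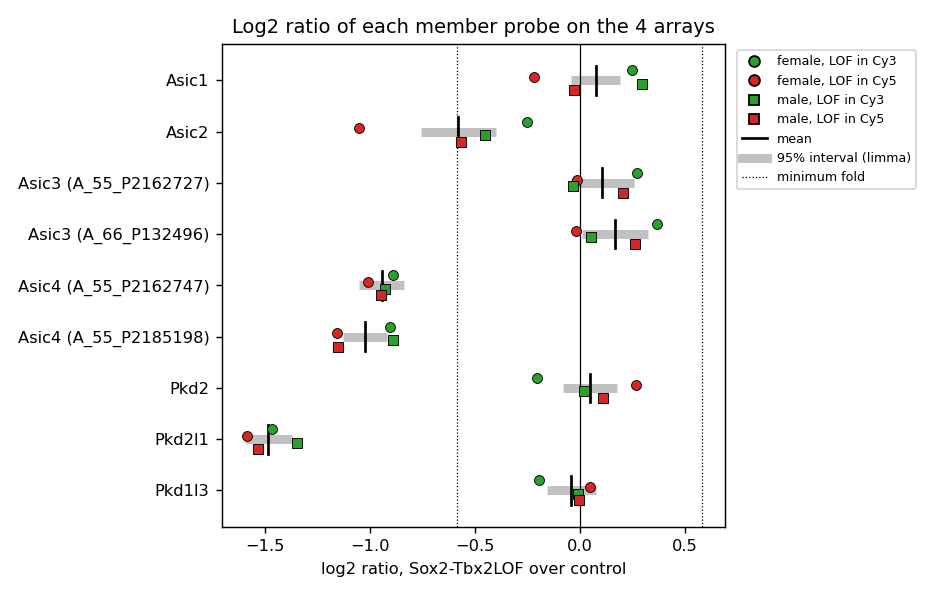
Log2 ratio of Sox2-Tbx2LOF over control (horizontal axis) for the 9 probes on each of the 4 arrays, with colour for the dye of the Sox2-Tbx2LOF RNA and shape for sex. Black ticks are means over 4 arrays, grey bars 95% intervals from limma, and dotted lines the minimum fold of 1.5. Asic4 and Pkd2l1 lie left of the dotted line on every array, and Asic2 straddles it. Asic4 and Pkd2l1 were chosen on this contrast, so their bars are a description.

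A probe counted as called with an adjusted p under 0.05 together with the minimum fold of 1.5, and among the 7 genes the 2 that met this were Asic4 and Pkd2l1, both lower. Over all tested probes 0.249% were called, and 0.128% were called lower. These 2 were the genes chosen for their fall, so nothing is read from that count. Without a minimum fold Asic2 was added as the only other gene, where 0.538% of all tested probes were lower at an adjusted p under 0.05. All Sox2-Tbx2LOF pools lay below all control pools for 1.3% of all tested probes, and Asic2 was the only relative among them. Among Asic1, Asic3, Pkd2 and Pkd1l3 the lowest bound of a 95% interval was −0.16, that of Pkd1l3.

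The effect of the genotype was compared between sexes. Pkd2l1 had a mean log2 ratio of −1.53 on the 2 female arrays and −1.44 on the 2 male arrays. Asic4 at A_55_P2162747 had −0.95 and −0.94, and Asic2 had −0.65 and −0.51. The male minus female difference ranged from −0.043 to 0.14 over the 9 probes, with an adjusted p of 1.00 (limma) for each. At an unadjusted p under 0.05, 0 of the 9 member probes and 565 of all 28079 probes differed, and 0% were called after adjustment. With 2 arrays per sex, standard errors of this difference were 0.10 to 0.17 on the log2 scale, so differences of that size were not detectable.

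Further channels of both families were measured next. Of 9 channel relatives, 6 were tested and 0 were called in either direction, with a median log2 ratio of 0.046 against 0.0019 over all 21217 tested genes. Of those 21217 genes only 58 were called, so a short list without a call is near that share. Nothing is read from the absence of calls in this list or in the channel and partner lists below. Their ratios ran from −0.017 for Pkd1, the large partner of polycystin-2, to 0.10 for Scnn1a, the alpha subunit of the epithelial sodium channel (adjusted p = 0.761, limma). The polycystin relatives Pkd1l1 (0.068), Pkd1l2 (0.024) and Pkd2l2 (0.085) were not called either. Asic5, the bile acid-gated relative of the ASICs, Scnn1g and Pkdrej were not well above background on any array in either genotype.

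Partners and processing factors of these channels gave 10 tested genes of 11, with 0 called and a median log2 ratio of −0.0042. The ratio farthest from 0 was that of Pick1 (−0.13, adjusted p = 0.484, limma), which encodes a PDZ domain protein that binds ASIC1 and ASIC2. Prkcsh and Ganab, which encode the subunits of the glucosidase needed for polycystin maturation, had ratios of −0.0035 and 0.022. Other proton sensors gave 7 tested genes of 9, with 0 called, a median of −0.017 and the value farthest from 0 at Otop2 (0.12, adjusted p = 0.79, limma), a proton channel gene. Otop1, which encodes the proton channel of sour taste cells and of the vestibular otoconia system, had a ratio of −0.038. Of 24 other TRP channel genes, 23 were on the array and 20 were tested, with 0 called and a median of −0.011. Trpv4, an osmosensitive channel found in the cochlea, had the ratio farthest from 0 (−0.20, adjusted p = 0.129, limma). Over these lists no gene passed an adjusted p under 0.05, against 237 of all 21217 tested genes. An unadjusted p under 0.05 was found for 6 of 43 tested genes (14.0%), 1 among partners and 5 among TRP channels. Over all 21217 tested genes it was found for 1641 (7.73%).

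**Figure D3:**
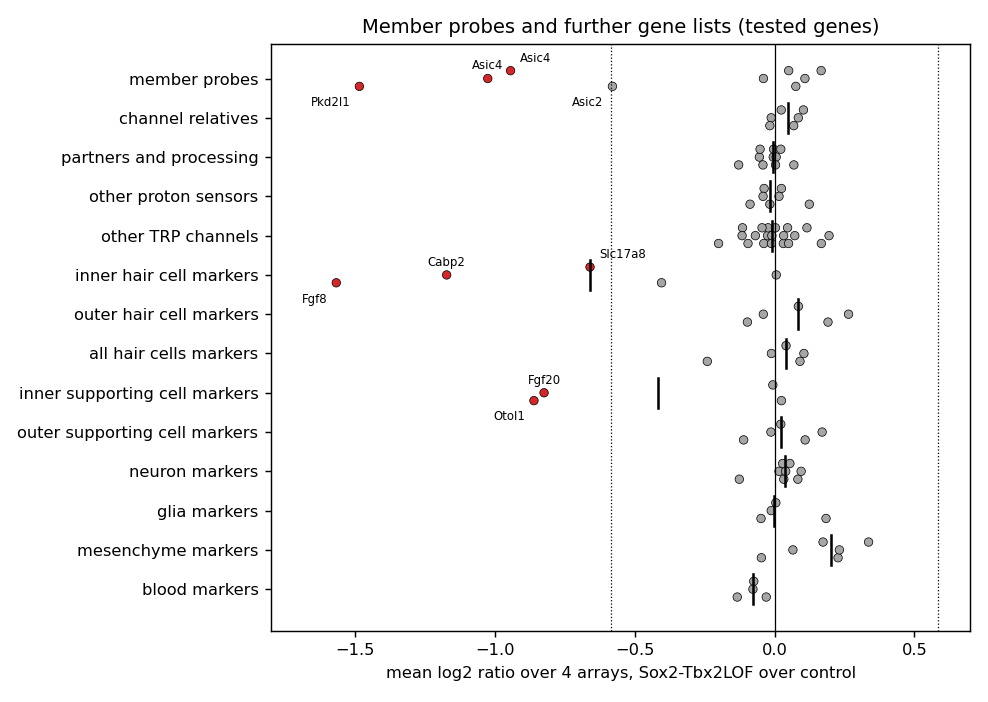
Mean log2 ratio over 4 arrays (horizontal axis) of the 9 member probes and of the tested genes of each further list, with called genes in red and named, list medians as black ticks and the minimum fold as dotted lines. No gene of the 4 channel and partner lists crosses the minimum fold, and 3 IHC markers and 2 inner supporting cell markers lie beyond it.

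Markers of the cell types in the tissue were set beside these ratios. All 5 general hair cell markers were well above background and 0 were called. Of 5 IHC markers, 3 were called lower, namely Fgf8 (−1.57), Cabp2 (−1.17) and Slc17a8 (−0.66), Otof was at −0.40 with an adjusted p of 0.00984 (limma) and Calb2 was at 0.0059. The log2 of the summed linear levels of the IHC list was 12.83 to 13.23 in Sox2-Tbx2LOF pools and 13.32 to 13.68 in control pools, with no overlap. That sum rests mostly on Otof, with a mean control level of 13.11 against 10.68 for Fgf8, the next brightest. Several markers of the list are ones the study named from these arrays, so the list is not independent evidence. Of 4 inner supporting cell markers, Otol1 (−0.86) and Fgf20 (−0.82) were called lower, while Fabp7 (−0.0063) and Slc1a3 (0.024) were not called. The study also named Otol1 and Fgf20 from these arrays, so their calls are not independent evidence either. Over all 21217 tested genes, 31 were called lower. None of the OHC, outer supporting cell, neuron, glia, mesenchyme or blood markers was called in either direction. The OHC marker Slc26a5 was not well above background on any array. Whether the lower Asic4, Pkd2l1 and Asic2 levels and those of IHC markers came from the same cells was not tested.

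Since ASICs are best known from neurons and the spiral ganglion had been removed, neuron markers were measured beside Asic2 and Asic4. All 8 were well above background, 7 of 8 had ratios above 0, and their median was 0.036. The log2 of their summed linear levels was 17.02 to 17.09 in Sox2-Tbx2LOF pools and 16.99 to 17.05 in control pools, and the ranges overlapped. Mesenchyme markers were above 0 for 5 of 6 genes, with a median of 0.20. The log2 of their summed linear levels was 18.024 to 18.13 in Sox2-Tbx2LOF pools, just above the 17.76 to 18.019 of control pools. Bright probes weigh most in both sums, such as Stmn2 (mean control level 15.16) among neuron markers. Among mesenchyme markers, Col1a2 (16.49) and Dcn (16.25) were the brightest. The part of this mesenchyme shift in the ratios of the channel genes was not tested.

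Genes next to the 3 lower channel genes in RefSeq order had ratios near 0. The protein-coding neighbours of Asic4 are Gmppa (0.003) and Chpf (0.045), those of Pkd2l1 are Bloc1s2 (−0.00069) and Scd3 (0.088), and those of Asic2 are Spaca3 (0.018) and 1700071K01Rik (−0.0098), each value being a log2 ratio. None of these 6 genes passed the test, with adjusted p values of 0.938 to 1.00 (limma).

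The genes with the pattern most like that of Pkd2l1 over the 8 pools were Wfdc12, Fgf8 and Prdm12, with Pearson r between log2 levels of 0.992, 0.990 and 0.989. All 3 were called lower, with log2 ratios of −1.54, −1.57 and −2.55. For Asic4 they were Fam83g, Cdh15 and Fgf15, with r of 0.976, 0.9749 and 0.971 and smaller ratios of −0.31, −0.38 and −0.41 that were not called. Among the members themselves, r was 0.963 between Asic4 and Pkd2l1, 0.857 between Asic4 and Asic2 and 0.883 between Pkd2l1 and Asic2. The 8 points fall into 2 genotypes that differ in level and share arrays in pairs, so these r values describe the genotype difference and have no test.

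Signals and labels of the whole arrays were as follows. The median spot signal was 315 to 412 per channel, 70.4% to 75.2% of probe spots were well above background, and log2 levels of pools of the same genotype correlated at 0.997 to 0.999 across tested probes. Tbx2 itself had log2 ratios of −0.057, −0.24, −0.015 and −0.30 at its only probe (mean −0.15, adjusted p = 0.313, limma). The sources used here do not say whether that probe lies in the floxed stretch, so it does not check the labels. Sox2, which carries the CreERT2 insertion, had a mean ratio of 0.23 (adjusted p = 0.0871, limma).

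**Figure D4:**
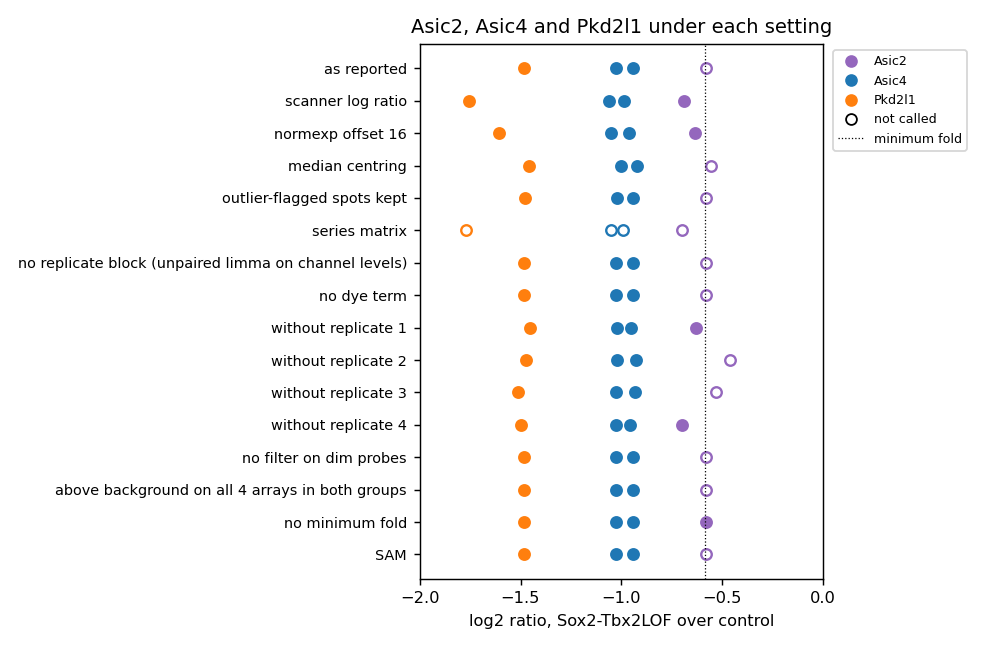
Log2 ratio of Sox2-Tbx2LOF over control (horizontal axis) of Asic2, Asic4 (2 probes) and Pkd2l1 as reported and under 15 other settings, with filled symbols where the probe was called and open symbols where it was not. Asic4 and Pkd2l1 are open on the series matrix values alone, and Asic2 lies on either side of the dotted minimum fold. Asic4 and Pkd2l1 were chosen on this contrast, so their symbols are a description.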

How the data were processed

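The authors hybridised the pools to 4 dual-colour Agilent whole mouse genome arrays and read them with Feature Extraction 10.7.3.1. The deposited intensity values are linear spot brightness with local background and are not normalized. The deposited files also hold a log10 ratio made by the scanner software. The deposited series matrix holds a signed fold change as a score, made by the authors in steps not given in the sources used here, which correlated with the ratios used here at 0.903 to 0.926 over probes and was used as an alternative. Its columns had a median of 1, its direction was taken from that correlation, and its normalization is unknown. Files listed 174979 spots, 17263 of them controls, and 39429 probes with 4 spots each. All arrays lay on the same slide and had the same scan, so neither could be a batch.

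Background was corrected with normexp (offset 50) in limma 3.58.1 under R 4.3.3, and ratios were normalized by loess within each array. Control spots and the 3.23% to 3.56% of spots with an outlier flag were left out, spots of a probe were averaged, and log2 ratios were turned to Sox2-Tbx2LOF over control. Loess assumes that most genes do not change, so ratios show relative change. Channel levels came after loess and Aquantile scaling. A probe was tested if well above background in more than 0.5 of its spots on at least 3 of 4 arrays in either genotype. lmFit and eBayes were used with a dye term, two-sided, with Benjamini-Hochberg adjustment, and steps were tested on simulated data. Calls required an adjusted p under 0.05 together with a fold of 1.5 or more. The 4 arrays limit the precision of all values. Significance Analysis of Microarrays (SAM), 2-class unpaired, the method the study names, was coded anew as an alternative. It was run on the channel levels made here, with all 70 regroupings of the 8 pools and a cut-off (delta) of 0.85. The study used the SAM software with its own normalization, number of permutations and delta, so this is not a rerun of its analysis. Lists used the brightest probe of each gene. From each list the text names genes with an adjusted p under 0.05, otherwise the tested gene with the largest ratio in either direction, and for Asic4 and Pkd2l1 the 3 genes with the highest r. Further genes named from the lists were chosen after their values were seen. The members and lists were chosen with earlier results of these data known. Symbols came from a RefSeq table (GRCm38.p6), which matched 28328 probes, and its coordinates were not used.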

Additional observations from a re-analysis of the deposited data

Results flagged for a closer look

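In the control pools, the log2 level of Asic4 at A_55_P2162747 stood apart on array 4. Its gap to the nearest of the other 3 pools was 0.884 of the whole range, above the 95% critical value of Dixon's test for 4 samples. Chance alone gives about 1.35 such values among the 27 groups of 4 that were examined. The Sox2-Tbx2LOF pool of that array was also the lowest of its genotype, and the log2 ratio without array 4 was −0.96. No difference between sexes passed the test.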

How the results depend on the processing

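As a description, since they were chosen on this contrast, Asic4 and Pkd2l1 were lower under all 15 alternatives and met the rule for a call in 14 of them, with ratios of −0.99 to −0.92 at A_55_P2162747, no lower than −1.06 at A_55_P2185198 and −1.77 to −1.45 for Pkd2l1. On the series matrix values they were not called (−0.99, −1.05 and −1.77), 0 member genes and 2 of all probes were called, and the cause was not tested. Asic2 was called with the scanner log ratio (−0.69), with an offset of 16 (−0.63) and with no minimum fold (−0.58), and leaving out 1 array gave −0.70 to −0.46. Its adjusted p ranged from 1.11e-05 to 0.527 over the alternatives. Over all probes 70 were called, 124 with the scanner log ratio, 277 with no minimum fold, 68 to 106 with 1 array left out (106 without array 1) and 60 by SAM. An unpaired fit with no replicate block, which ignores the pairing of pools on an array, called 59 probes and changed no call of a member. Pkd2 and Pkd1l3 changed sign without array 3 (−0.0051) and without array 1 (0.0066). Leaving out 1 array moved them between −0.0051 and 0.11 and between −0.086 and 0.0066. The sex difference changed sign for Asic4 with median centring (−0.021 and −0.019) and the scanner log ratio (−0.0084), and for Asic3 with the scanner log ratio (0.0069), and 0 passed the test in any setting. It could not be fitted with 3 arrays, which leave no residual degrees of freedom. Dim signal limits Pkd1l3.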
